A study of Homo sapiens with 4 samples.

Results

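Endoplasmic reticulum chaperones were examined in the human SAS line, derived from a squamous carcinoma of the tongue, after knockdown of the double-stranded RNA-binding protein STAU1. The part consists of 10 genes given by a fixed list of symbols, namely HSPA5, HSP90B1, DNAJB9, SDF2L1, HYOU1, PDIA4, CALR, CRELD2, HERPUD1 and MANF. All 10 were matched by Ensembl identifier among the 67008 genes of the deposited table, and 9 of them had enough counts to be tested. The comparison was between groups of 2 libraries each: control cells carrying an shRNA against luciferase (Ctrl) and cells carrying an shRNA against STAU1 (shSTAU1). Both groups are labelled wild type and were virally infected, so the groups share the infection and differ in the shRNA. A single shRNA was used per group, in cells of a single line. The label for the cell line reads C3H 10T1/2, a mouse fibroblast line, while the organism is given as human and the growth protocol names SAS cells. All 10 squamous epithelial markers examined (KRT5, KRT14 and TP63 among them) were detected, with a summed level of 7984 to 12392 CPM, whereas the fibroblast genes COL3A1, DCN, LUM and THY1 had at most 1 count in any library. The other 4 fibroblast markers brought the summed level of that list to between 10.2 and 22.8 CPM, most of it from COL1A1.

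The endoplasmic reticulum (ER) is the compartment in which secreted and membrane proteins fold. HSPA5 (BiP), its HSP70 chaperone, also binds the stress sensors IRE1, PERK and ATF6 and holds them inactive. When unfolded proteins accumulate, the sensors are released and the unfolded protein response (UPR) raises the transcription of chaperone genes through ATF6 and XBP1, which act with the CCAAT-binding factor NF-Y at the ER stress response element (ERSE).

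The promoters of the 10 genes are shown first, because this element and related ones are what the group is known for, though not every gene held an exact match. Promoters of 250 bases before to 50 bases after the start were taken from RefSeq (GRCh38.p14), which held all 10 genes, with 2 entries for PDIA4. They were searched on both strands for ERSE (CCAAT and CCACG with 9 bases between them), for the related ERSE-II (ATTGG and CCACG with 1 base between them) and for the XBP1 element UPRE (TGACGTGG). In the following lines the fixed letters of each element are in capitals, with 5 flanking bases on either side included in the coordinates, read 5′ to 3′ on the strand that carries the element.
HSPA5 ERSE, chr9:125241386-125241414, minus strand: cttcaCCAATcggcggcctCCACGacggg
HSP90B1 ERSE, chr12:103930211-103930239, plus strand: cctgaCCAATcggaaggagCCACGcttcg
HSP90B1 ERSE, chr12:103930316-103930344, minus strand: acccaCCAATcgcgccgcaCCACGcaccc
CALR ERSE, chr19:12938379-12938407, minus strand: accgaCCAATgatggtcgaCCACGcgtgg
CRELD2 ERSE, chr22:49918549-49918577, minus strand: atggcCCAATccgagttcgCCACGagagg
HERPUD1 ERSE-II, chr16:56932020-56932040, plus strand: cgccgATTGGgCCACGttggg
HYOU1 ERSE-II, chr11:119057269-119057289, plus strand: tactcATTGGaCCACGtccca
HYOU1 ERSE-II, chr11:119057375-119057395, plus strand: ctgggATTGGaCCACGtcacg
SDF2L1 ERSE-II, chr22:21642109-21642129, minus strand: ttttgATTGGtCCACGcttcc

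ERSE was present in 4 of the 10 genes (HSPA5, HSP90B1, CALR and CRELD2), against 0.0769% of the 35116 promoters in the table. ERSE-II was present in another 3 (HERPUD1, HYOU1 and SDF2L1), against 0.0541% of all promoters. The UPRE letters occurred in HYOU1, where they overlap the more distant ERSE-II match, and in 0.729% of all promoters. The promoters of DNAJB9, PDIA4 and MANF held no exact match to these letters in this window. The element nearest to its start was that of HSPA5, 66 bases before it when counted from the element's far edge, and the most distant was that of CALR at 225 bases. The elements searched for are those the group is known for, so these shares describe the promoters and are not a test of enrichment. A match describes the sequence and does not show that a factor was bound in these cells.

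**Figure D1:**
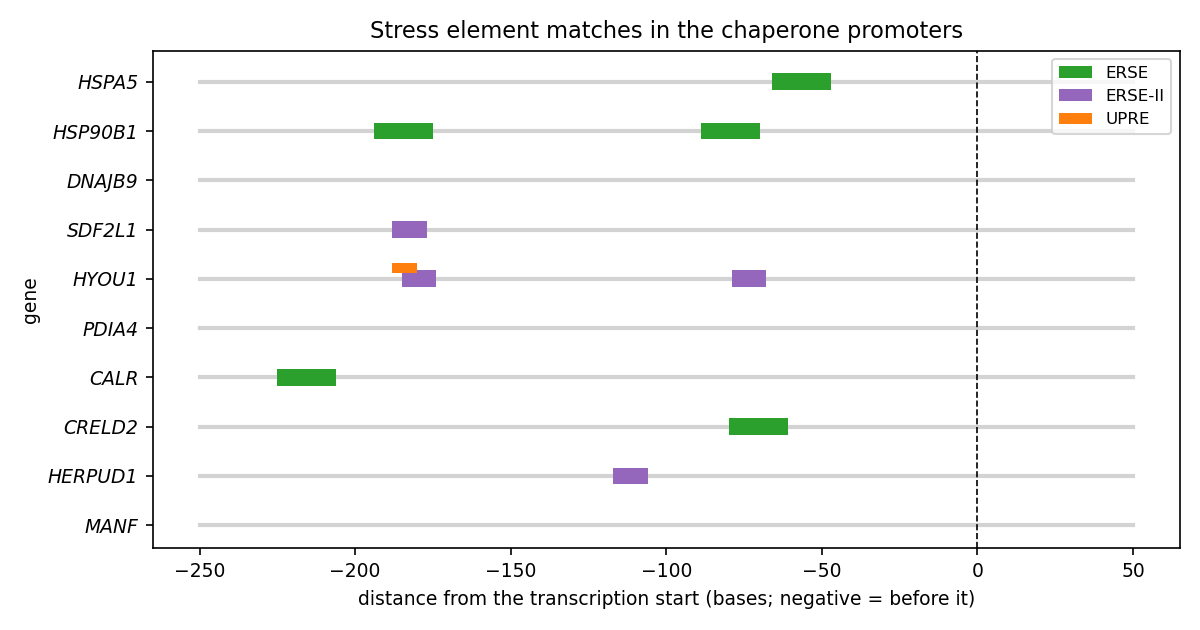
Matches to ERSE, ERSE-II and UPRE in the RefSeq promoters of the 10 chaperone genes, by distance from the transcription start in bases (dashed line at the start, PDIA4 shown once as neither of its entries held a match). HSP90B1 and HYOU1 carry a pair of ERSE or ERSE-II matches, and DNAJB9, PDIA4 and MANF carry none in this window.

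The libraries held between 32206655 and 36301574 counts. STAU1, the targeted gene, was examined first and had 249 and 251 CPM (counts scaled to library size and TMM factor, per 1e6) in Ctrl and 41.6 and 41.5 CPM in shSTAU1. By edgeR's quasi-likelihood test the log2 fold change was -2.59, with a standard error of 0.13 and an adjusted p of 0.00103, and the groups lay far apart relative to the replicates. Genes were fitted together in that test, with Benjamini-Hochberg adjustment over the 14303 tested genes and a threshold of 0.05.

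None of the 9 tested chaperone genes passed the threshold after STAU1 knockdown, and their log2 fold changes did not have a common sign. HSPA5 was at 67.3% of its Ctrl level, while CALR, CRELD2 and MANF were at 137%, 134% and 144%. HSP90B1, PDIA4 and HERPUD1 were at 108% to 112%, and SDF2L1 was at 99.7%. The smallest adjusted p was that of HSPA5. Across all tested genes 372, or 2.60%, passed (1.13% higher and 1.48% lower), so a count of 0 among 9 genes is close to that share. At an unadjusted p under 0.05 there were 3 of 9 (HSPA5 lower, CALR and MANF higher), against 24.5% of all tested genes. With limma-voom, with library size alone as scaling, with a length and GC offset and without a filter on low counts 0 of the 9 passed, against 2.54%, 2.82%, 0.986% and 0.0443% of all genes in those fits. With DESeq2 1 passed, HSPA5, against 12.0% of all genes. Without Ctrl replicate 1 or Ctrl replicate 2 again 0 of the 9 passed, against 1.50% and 1.58% of all genes. Without shSTAU1 replicate 1 there were 3 (HSPA5, CALR and MANF), against 18.4% of all genes, and without shSTAU1 replicate 2 there was 1 (HSPA5), against 12.1%. The median log2 fold change of the 9 was 0.13, against 0.0059 over all tested genes, and it was 0.052 without shSTAU1 replicate 2.

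**Figure D2:**
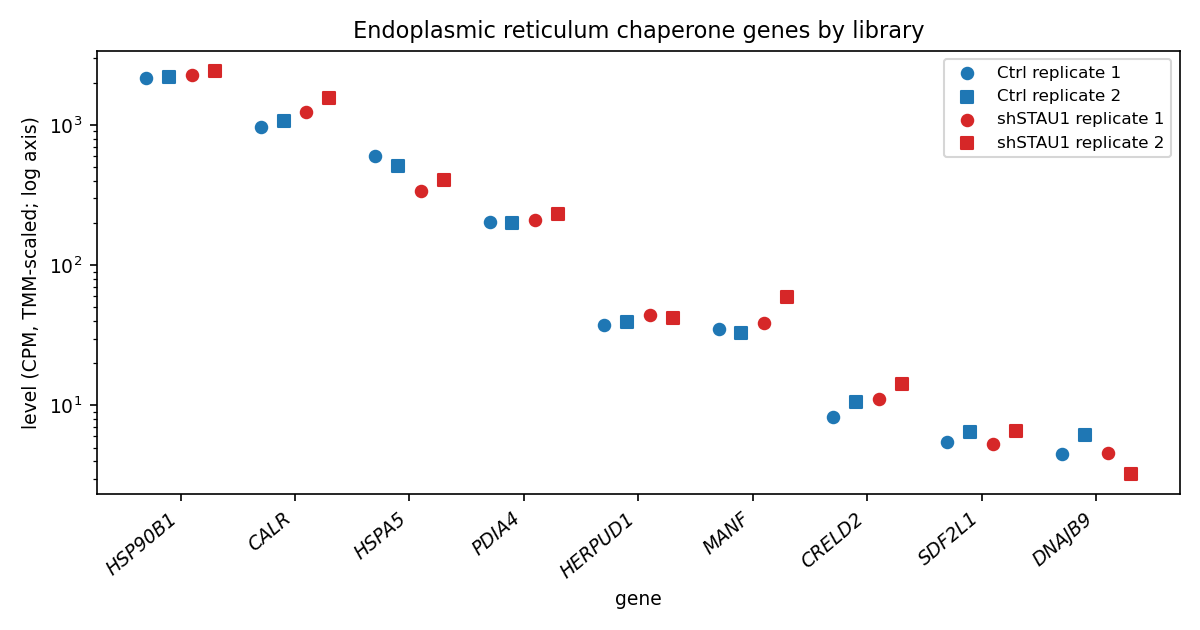
Level of the 9 tested chaperone genes in each of the 4 libraries (vertical axis, TMM-scaled CPM on a log axis; blue, Ctrl; red, shSTAU1; circles, replicate 1; squares, replicate 2). Each point is 1 library. Both shSTAU1 points of HSPA5 lie under its Ctrl points, and those of CALR and MANF lie over them.

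The central HSP70 system was considered first. HSPA5 (ENSG00000044574) spans 125234853 to 125241330 of chromosome 9 (minus strand; GRCh38, as for all genes here). It had 603 and 508 CPM in the Ctrl libraries and 339 and 409 CPM in the shSTAU1 libraries. The groups did not overlap, with means (± SD, n = 2) of 555 ± 66.9 CPM for Ctrl and 374 ± 49.0 CPM for shSTAU1. On the log2 scale the difference was -0.57 with a standard error of 0.15 (95% interval -0.92 to -0.22), with an adjusted p of 0.0769 in edgeR's quasi-likelihood test and an unadjusted p of 0.00565. HSPA5 passed the threshold with DESeq2 (adjusted p = 0.0153, log2 fold change of -0.57). In edgeR's test it also passed when shSTAU1 replicate 1 was left out (adjusted p = 0.031) or shSTAU1 replicate 2 was left out (adjusted p = 0.00322), fits in which 18.4% and 12.1% of all genes passed and in which the remaining shSTAU1 library is assumed to vary like the other group.

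DNAJB9 (ERdj4; ENSG00000128590, chromosome 7 from 108569568 to 108574850, plus strand) is a J-domain partner of HSPA5. It was the member with the fewest counts among those tested, with 151 and 200 counts in Ctrl and 160 and 114 counts in shSTAU1. At 4.49 and 6.11 CPM in Ctrl and 4.60 and 3.23 CPM in shSTAU1 the groups overlapped. The log2 fold change of -0.44 had an interval of -1.16 to 0.28 (adjusted p = 0.411 by edgeR's quasi-likelihood test), and it was -0.22 without shSTAU1 replicate 2 and -0.20 without Ctrl replicate 2. Its first bases overlap those of THAP5 and PNPLA8 on the opposite strand, and the strand setting of the counting was not stated.

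SDF2L1 (ENSG00000128228, chromosome 22 from 21642261 to 21644298, plus strand) forms a complex with the J-protein DNAJB11 in the HSPA5 cycle. Its levels were 5.47 and 6.41 CPM in Ctrl and 5.29 and 6.56 CPM in shSTAU1. The 4 libraries interleaved, with a log2 fold change of -0.0041 (95% interval -0.59 to 0.59). The interval does not exclude a difference of that size in either direction.

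HYOU1 (ENSG00000149428, chromosome 11 from 119044189 to 119057202, minus strand), an HSP110-type exchange factor for HSPA5, had 1 count in Ctrl replicate 1 and 0 in the other 3 libraries. It was not tested. A floor of 3 counts corresponds to 0.0826 to 0.0931 CPM per library and covers counting error only. A count of 0 in this table does not show that a gene is silent, since SMN1 and SMN2, near-identical copies of a gene that all cells need, were also listed at 0 in all 4 libraries.

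GRP94 and its lectin and disulfide partners made up most of the chaperone RNA. HSP90B1 (GRP94; ENSG00000166598, chromosome 12 from 103930107 to 103953645, plus strand), the HSP90 of the ER, had 2166 and 2189 CPM in Ctrl and 2265 and 2434 CPM in shSTAU1. Both shSTAU1 libraries were above both Ctrl libraries, but by a log2 fold change of 0.11 with an interval of -0.16 to 0.38 (adjusted p = 0.594, edgeR's quasi-likelihood test). PDIA4 (ERp72; ENSG00000155660, chromosome 7 from 149003062 to 149028641, minus strand), a protein disulfide isomerase, had 203 and 199 CPM in Ctrl and 211 and 230 CPM in shSTAU1. Its log2 fold change was 0.13 (95% interval -0.15 to 0.42).

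CALR (calreticulin; ENSG00000179218, chromosome 19 from 12938578 to 12944489, plus strand) is the soluble lectin chaperone that binds calcium and monoglucosylated glycoproteins. It had 967 and 1068 CPM in Ctrl and 1236 and 1548 CPM in shSTAU1, without overlap. The log2 fold change was 0.45 (standard error 0.15, 95% interval 0.11 to 0.79), with an adjusted p of 0.118 in edgeR's quasi-likelihood test and an unadjusted p of 0.0161. The size rests in part on shSTAU1 replicate 2, without which the log2 fold change was 0.26, and in the fit without shSTAU1 replicate 1 it was 0.60.

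The smaller UPR-induced proteins completed the list. MANF (ENSG00000145050, chromosome 3 from 51385047 to 51389397, plus strand), a secreted ER stress factor that binds HSPA5, had 35.0 and 32.7 CPM in Ctrl and 38.8 and 58.9 CPM in shSTAU1. The groups did not overlap, but the shSTAU1 libraries were themselves 1.52-fold apart. The log2 fold change was 0.53 (standard error 0.21, 95% interval 0.042 to 1.02; adjusted p = 0.175 and unadjusted p = 0.0369, edgeR's quasi-likelihood test). It was 0.18 without shSTAU1 replicate 2, 0.80 without shSTAU1 replicate 1 and 0.34 after an offset for transcript length and GC content.

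CRELD2 (ENSG00000184164, chromosome 22 from 49918167 to 49927540, plus strand), an ER-resident protein with disulfide isomerase activity, had 8.33 and 10.6 CPM in Ctrl and 11.1 and 14.3 CPM in shSTAU1. Its lowest shSTAU1 library was only just above its highest Ctrl library. The log2 fold change of 0.43 had an interval of -0.11 to 0.97 (adjusted p = 0.297, edgeR's quasi-likelihood test). It was 0.22 without shSTAU1 replicate 2, 0.24 without Ctrl replicate 1 and 0.25 with the length and GC offset. The first 292 bases of CRELD2 overlap ALG12 on the opposite strand.

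HERPUD1 (ENSG00000051108, chromosome 16 from 56932048 to 56944863, plus strand) is the ubiquitin-like membrane protein that organises the HRD1 degradation complex, and is thus a partner of the chaperones in clearance rather than folding. Its levels were 37.7 and 39.3 CPM in Ctrl and 44.0 and 42.1 CPM in shSTAU1. The replicates were close and the groups apart, with a log2 fold change of 0.16 and an interval of -0.16 to 0.49 (adjusted p = 0.511, edgeR's quasi-likelihood test).

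**Figure D3:**
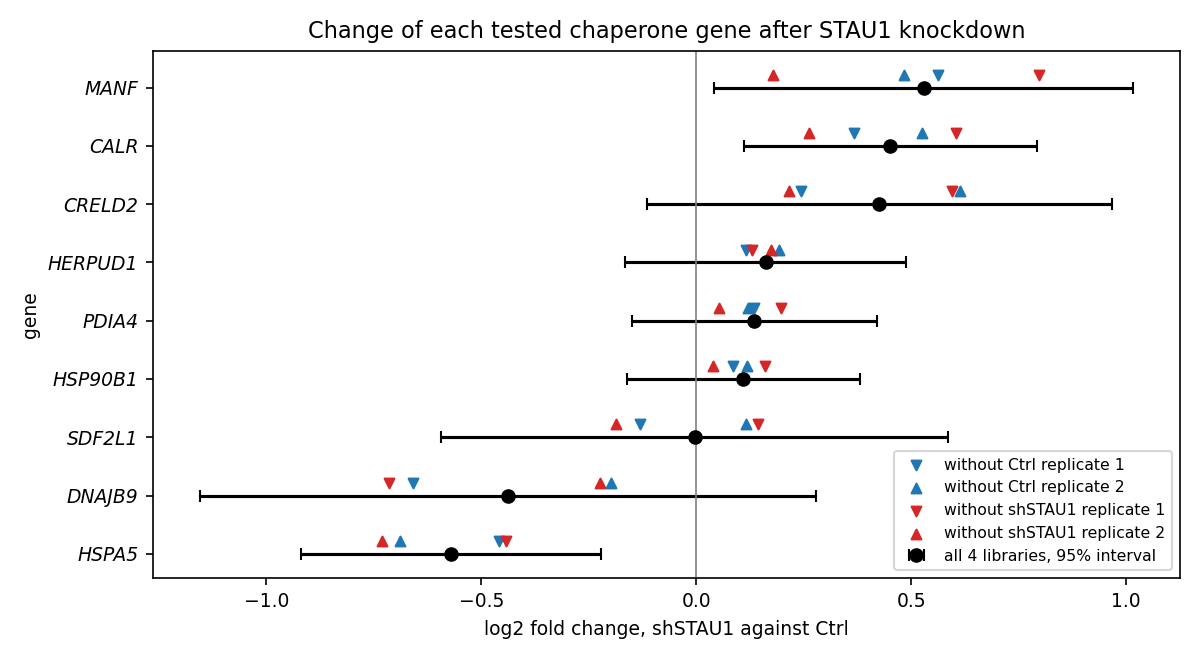
Log2 fold change of each tested chaperone gene, shSTAU1 against Ctrl (black points, 95% intervals from edgeR's quasi-likelihood test on all 4 libraries), with the values when 1 library is left out (triangles). The intervals of HSPA5, CALR and MANF lie on 1 side of 0. For HSP90B1, PDIA4, CALR, CRELD2 and MANF the value nearest to 0 is that without shSTAU1 replicate 2.

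Of the 9 tested genes, 7 had groups that did not overlap. In 6 of these the shSTAU1 libraries were the higher ones and in 1, HSPA5, the lower ones. Over all tested genes 56.6% did not overlap, 28.5% with shSTAU1 above and 28.0% with shSTAU1 below. The 6 were HSP90B1, PDIA4, CALR, CRELD2, HERPUD1 and MANF. As these are bulk libraries, a change in the RNA per cell and a change in the make-up of the cells cannot be told apart. The summed level of the 10 squamous markers was 7984 to 8442 CPM in Ctrl and 9519 to 12392 CPM in shSTAU1, with KRT5 and SFN past the threshold (log2 fold changes of 0.65 and 1.43, adjusted p = 0.0408 and 0.0285 by edgeR's quasi-likelihood test). Of the 10 markers, 8 had a log2 fold change above 0 and 2 below it, the lowest at -0.76. The groups of 6 overlapped, 3 were above Ctrl in both shSTAU1 libraries and 1 was below. Whether the levels of these markers had a part in the chaperone values was not tested.

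Each gene was also set against HSPA5 within its own library, where a ratio of counts does not depend on scaling but moves with HSPA5 as well as with the other gene. CALR had 1.61 and 2.10 counts per count of HSPA5 in the Ctrl libraries and 3.64 and 3.79 in the shSTAU1 libraries. HSP90B1 had 3.59 and 4.31 in Ctrl and 6.68 and 5.96 in shSTAU1. MANF had 0.058 and 0.0644 in Ctrl and 0.114 and 0.144 in shSTAU1. Of the 8 ratios to HSPA5, 7 did not overlap between the groups and were higher in shSTAU1, and that of DNAJB9 overlapped. Of all other tested genes 62.1% had a ratio to HSPA5 that was higher in shSTAU1 without overlap, and the 8 ratios share 1 denominator, so the count is not particular to the chaperones. SDF2L1 is among the 7, although its own levels overlapped. For each of the 7 an exact two-sided permutation test gave p = 0.333, which is the smallest that 2 libraries against 2 allow. Any ratio without overlap gives this value, so the test adds nothing to the lack of overlap. Of the 8 ratios to HSP90B1, 3 were higher in shSTAU1 without overlap (CALR, CRELD2 and MANF), against 21.3% of all genes. HSPA5 and DNAJB9 were lower without overlap, against 35.1% of all genes, and PDIA4, SDF2L1 and HERPUD1 overlapped. PDIA4 had 0.0938 and 0.0908 counts per count of HSP90B1 in Ctrl and 0.0932 and 0.0946 in shSTAU1.

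**Figure D4:**
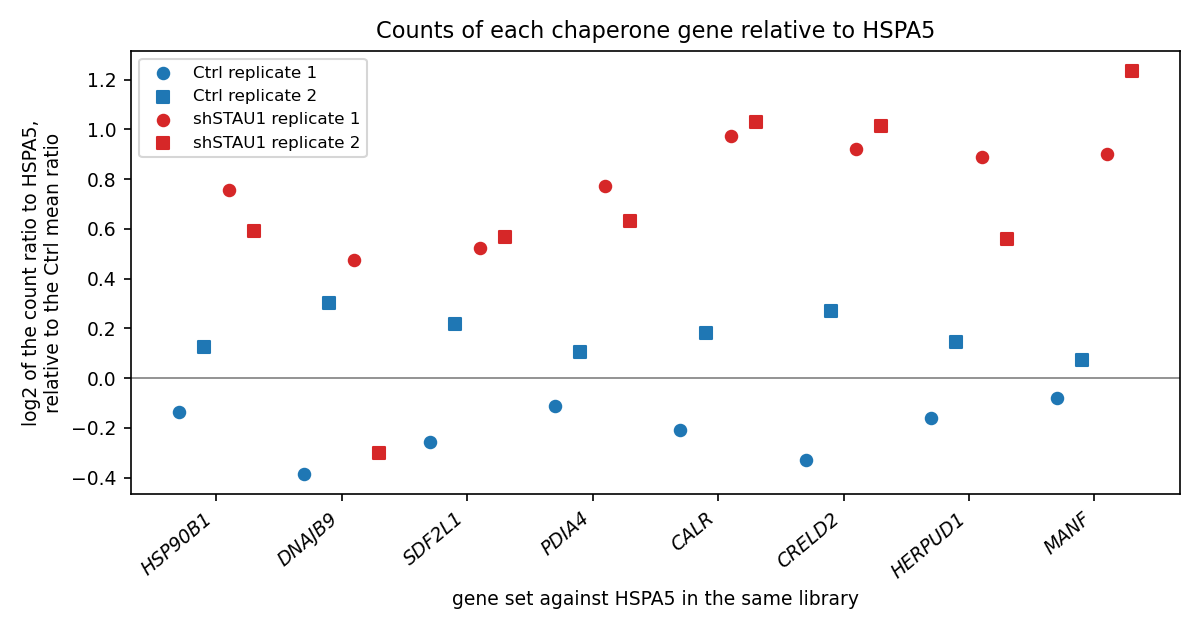
Counts of 8 chaperone genes relative to HSPA5 in the same library, as the log2 of the ratio over its Ctrl mean (blue, Ctrl; red, shSTAU1; each point is 1 library). For CALR, CRELD2 and MANF both shSTAU1 libraries lie near or above 0.9, whereas the points of DNAJB9 are mixed.

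The level of the 10 genes covered a wide range in both groups. Per kilobase of the principal GENCODE 29 transcript, HSP90B1 had 762 ± 5.82 CPM and CALR had 535 ± 37.5 CPM in Ctrl (SD, n = 2). HSPA5 followed with 142 ± 17.1, PDIA4 with 69.2 ± 1.06, MANF with 29.4 ± 1.37 and HERPUD1 with 13.1 ± 0.38 CPM per kilobase. CRELD2 (6.98 ± 1.20) and SDF2L1 (6.87 ± 0.77) could not be placed in order beyond their spread, and DNAJB9 had 1.95 ± 0.42 CPM per kilobase. In shSTAU1 the order was the same, but the ranges of HSP90B1 (793 to 851 CPM per kilobase) and CALR (650 to 813) overlapped. Per kilobase of coding sequence the mean of CALR was below that of HSP90B1 in Ctrl (814 against 904 CPM). In shSTAU1 the mean of CALR was the higher one (1113 against 975 CPM), but there too the libraries of both genes overlapped. The libraries were made by exome capture, so levels between genes also depend on the capture of each gene.

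Because a few genes dominate the sum, the composition of the chaperone RNA was compared as shares of the CPM of the 10 genes. HSP90B1 made up 53.7% and 53.9% in Ctrl and 54.5% and 51.3% in shSTAU1. HSPA5 made up 15.0% and 12.5% in Ctrl and 8.16% and 8.61% in shSTAU1. CALR made up 24.0% and 26.3% in Ctrl and 29.7% and 32.6% in shSTAU1. HSPA5 thus held a smaller share of the chaperone RNA in both knockdown libraries, and CALR a larger one. The sum itself was 4030 and 4060 CPM in Ctrl and 4156 and 4745 CPM in shSTAU1.

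The genes that share ERSE did not share a direction. The fold changes of the 4 ERSE genes ran from that of HSPA5, the only one below 0, to that of CALR. Of the ERSE-II genes, HERPUD1 was slightly above and SDF2L1 close to 0. Among the genes without an exact match to either element in the searched window, DNAJB9 was below 0, while PDIA4 and MANF were above. The intervals of DNAJB9 and PDIA4 included 0. An inexact or more distant copy in these genes was not searched for.

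The sensors and factors that control this program were examined next, from a list of 15 genes, of which 14 were tested. Of these 1 was higher and 1 was lower past the threshold, and 12 did not pass. CREB3L2 (BBF2H7), an ER-anchored factor related to ATF6, had 18.2 and 16.8 CPM in Ctrl and 8.36 and 7.70 CPM in shSTAU1, a log2 fold change of -1.12 (adjusted p = 0.036, edgeR's quasi-likelihood test). NFYB, the subunit of NF-Y that helps to bind CCAAT, had 36.6 and 35.7 CPM in Ctrl and 56.8 and 65.0 CPM in shSTAU1, a log2 fold change of 0.75 (adjusted p = 0.044, same test). Both missed the threshold after the length and GC offset, without a filter on low counts, without Ctrl replicate 1 and without Ctrl replicate 2.

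The 3 sensors of the UPR did not pass. ERN1 (IRE1) had 11.2 and 9.56 CPM in Ctrl and 7.58 and 4.81 CPM in shSTAU1, a log2 fold change of -0.74 (adjusted p = 0.151, edgeR's quasi-likelihood test). XBP1, the transcript that IRE1 splices, had 17.6 and 16.3 CPM in Ctrl and 12.5 and 11.3 CPM in shSTAU1, a log2 fold change of -0.51 (adjusted p = 0.148, same test). Gene counts do not separate its spliced and unspliced forms. EIF2AK3 (PERK) had a log2 fold change of -0.064 and ATF6 one of -0.017, with groups that overlapped. ATF4, the gene of the list with the highest mean CPM and the factor made under PERK signalling, had 101 and 103 CPM in Ctrl and 102 and 111 CPM in shSTAU1. DDIT3 (CHOP), a target of ATF4 in lasting ER stress, had 4.61 and 5.71 CPM in Ctrl and 4.74 and 4.13 CPM in shSTAU1. For both, the groups overlapped.

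Other genes of folding and quality control were taken from another 7 lists. Over all 8 lists of the pathway 109 of 115 genes were tested and 2 passed, the CREB3L2 and NFYB named above, which is 1.83%. At an unadjusted p under 0.05 there were 23, or 21.1%. These shares are near those of all tested genes. Another 5 genes had no count in any library (ATF6B, FKBP2, DERL3, HSPA1A and HSPA1B).

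None of 22 tested cochaperones and folding factors passed, with a median log2 fold change of -0.21. Of these 4 were above and 10 below Ctrl in both libraries, where 28.5% and 28.0% of all tested genes were. SEC63, the J-protein of the translocon, had the highest mean CPM of the list, not corrected for length, with 415 and 353 CPM in Ctrl and 416 and 400.3 CPM in shSTAU1. None of 16 genes of disulfide formation passed (median 0.043, and -0.026 without Ctrl replicate 2), and PDIA3, the partner of CALR in glycoprotein folding, had 725 and 587 CPM in Ctrl and 680 and 688 CPM in shSTAU1. None of 6 genes of N-glycan trimming passed (median -0.18, and -0.30 without shSTAU1 replicate 2), of which 4 were below Ctrl in both libraries against 28.0% of all tested genes, PRKCSH, a glucosidase subunit, having the highest mean CPM, with 736 and 781 CPM in Ctrl and 723 and 717 CPM in shSTAU1.

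None of 23 tested genes of ER-associated degradation passed (median 0.024, and 0.061 without shSTAU1 replicate 1). VCP, the ATPase that extracts proteins from the membrane, had 878 and 927 CPM in Ctrl and 823 and 992 CPM in shSTAU1. None of 16 genes of translocation passed. Their median was 0.13 and ranged from 0.038 without shSTAU1 replicate 2 to 0.29 without shSTAU1 replicate 1. In both shSTAU1 libraries 8 were above Ctrl and 1 was below, where 28.5% and 28.0% of all tested genes were. SEC61A1, the channel itself, had 272 and 355 CPM in Ctrl and 242 and 323 CPM in shSTAU1. The 3 KDEL receptors, which return soluble chaperones from the Golgi, did not pass, and KDELR2 had 101 and 102 CPM in Ctrl and 112 and 138 CPM in shSTAU1.

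**Figure D5:**
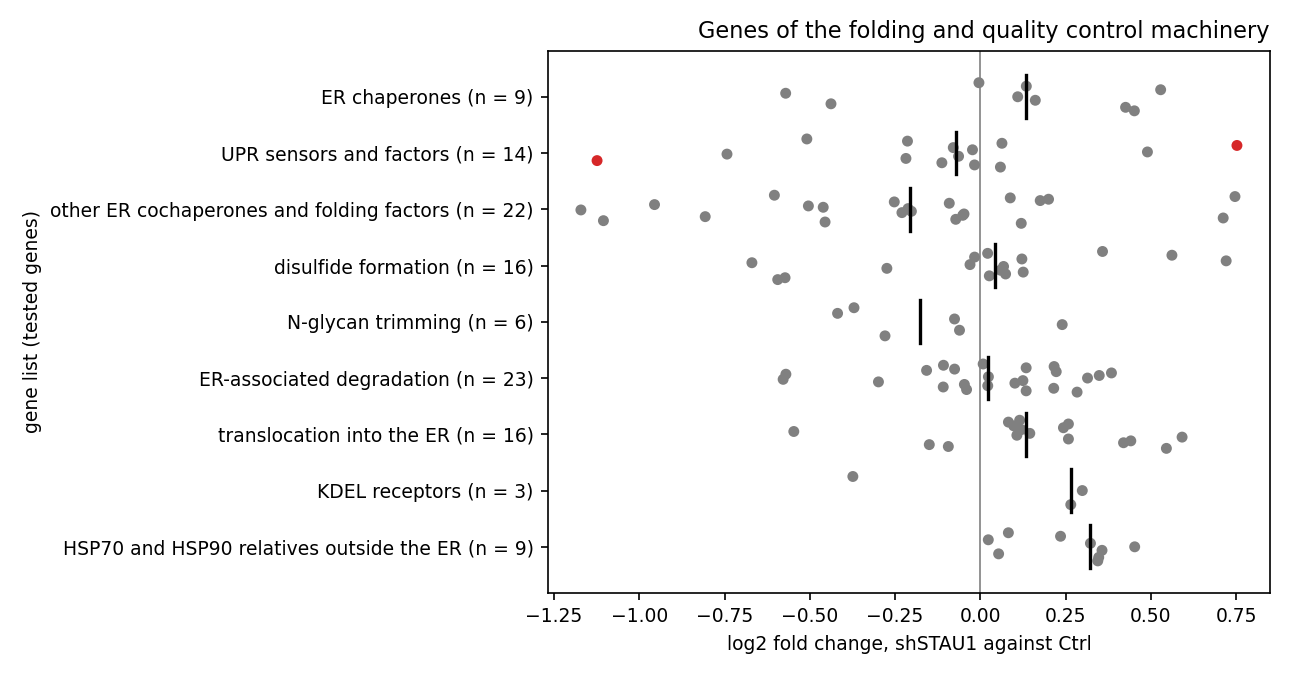
Log2 fold change of each tested gene in the chaperone list and the 8 other lists of the pathway (1 point per gene; black bars, list medians; red, adjusted p under 0.05 in edgeR's quasi-likelihood test). The 2 red points are CREB3L2 and NFYB, and no chaperone gene is red.

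Relatives of HSPA5 and HSP90B1 outside the ER gave a comparison by compartment. None of 9 passed, and 3 were above Ctrl in both libraries and 0 below, where 28.5% and 28.0% of all tested genes were. Their median log2 fold change of 0.32 was 0.063 without shSTAU1 replicate 2, 0.087 without Ctrl replicate 1 and 0.54 without shSTAU1 replicate 1. HSP90AA1, the inducible cytosolic HSP90, had 5921 and 7274 CPM in Ctrl and 5834 and 10920 CPM in shSTAU1, so that the libraries of shSTAU1 were farther apart than the groups. HSPA8, the constitutive cytosolic HSP70, likewise had 1780 and 3013 CPM in Ctrl and 2045 and 3951 CPM in shSTAU1. In both genes replicate 2 was above replicate 1 in each group. The gap between the replicates of HSPA5 was smaller, with replicate 2 at 0.84 times replicate 1 in Ctrl and 1.20 times in shSTAU1.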

How the data were processed

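RNA-sequencing libraries were prepared from total RNA of SAS cells by exome capture (TruSeq RNA Exome), with 2 Ctrl and 2 shSTAU1 libraries. The authors deposited whole-number read counts per gene without normalization. Their processing notes name Partek and hg38, and the aligner, counting program, strand setting and annotation release are not given in the sources used here. No sample column was left unmapped (0). Positions and transcript lengths came from GENCODE 29 on GRCh38, in which 58516 of the 67008 identifiers were found. Replicates are separate samples by their labels, but nothing says that they came from separate cultures, so p-values measure the spread between these libraries, which may be technical. Differences within each group exceeded counting noise (chi-square divided by its degrees of freedom, 25.2 for Ctrl and 60.0 for shSTAU1).

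The count test used edgeR 4.0.16 (R 4.3.3). The filterByExpr filter left 14303 genes with 99.9% of the counts, which were scaled by TMM and compared with the quasi-likelihood test (adjusted p under 0.05; biological coefficient of variation 19.1%). Standard errors and 95% intervals were derived from the test statistic. Alternatives were DESeq2 1.42.0, voom in limma 3.58.1, library size only, no filter, a block for the replicate number, a 0.10 threshold, a length and GC offset (covering 99.0% of tested genes) and leaving out each library. The models were also run on simulated counts with known changes. These changes were larger than those of the chaperone genes, with less spread than fitted here and no effect shared by same-numbered libraries. That run therefore does not show how changes of the size seen in the chaperone genes are recovered. Promoters were searched in Python 3.11.15. The members and lists were chosen with earlier results of these data known. Genes named are the members, STAU1, the main UPR sensors and factors, genes of each list past the threshold, the gene of highest mean CPM in each list and the 5 genes nearest in profile. HSPA8, SMN1, SMN2, the cell type markers and the genes with ERSE promoters were named after their values were seen.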

Additional observations from a re-analysis of the deposited data

How the results depend on the processing

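The number of chaperone genes past the threshold depended on the processing, as did the number over all genes. Against 0 of 9 chaperone genes and 372 of all genes, DESeq2 gave 1 and 1449, and a threshold of 0.10 gave 1 and 1585. Without a filter 0 and 11 passed, with more genes tested, and with the length and GC offset 0 and 141. Across the fits that each left out 1 library the counts ran from 0 to 3 chaperone genes and from 214 to 2625 of all genes. Of 108 values computed for the 9 genes under alternatives, 95 kept their direction and side of the threshold, 11 passed it (HSPA5, CALR and MANF) and 2 changed sign, both those of SDF2L1, which ran from -0.19 to 0.14 with 1 library left out. STAU1 ran from -2.61 to -2.58. Library size in place of TMM moved the median of all genes to -0.046 and gave 404 calls. The cause of these differences was not tested.

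Ctrl and shSTAU1 use the same replicate numbers, which also open the column headers of the deposited counts. No statement in the sources says that these numbers stand for a batch. Deviations of same-numbered libraries correlated at 0.27 across tested genes and at 0.59 across those above a log2 CPM of 5. A replicate block let 4087 genes (28.6%) pass, which include all 372, and 2947 (20.6%) passed with the length and GC offset as well. Of the chaperone genes 3 passed under the block (HSPA5, CALR and MANF) and 2 under the block with the offset (HSPA5 and CALR). The log2 difference of replicate 2 from replicate 1 was -0.25 in Ctrl and 0.27 in shSTAU1 for HSPA5, and -0.094 and 0.60 for MANF. These 2 genes thus showed no shift common to same-numbered libraries, whereas CALR had 0.14 and 0.32.

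In the other lists, counts past the threshold moved as follows. Sensors and factors went from 2 to 5 under the block with or without the offset, to 0 with the offset alone or without a filter, and from 0 to 3 with 1 library left out. Cochaperones went from 0 to 5 under the block with or without the offset, 3 with DESeq2, 1 at the threshold of 0.10, and 0 to 4 with 1 library left out. Disulfide formation went from 0 to 5 under the block with or without the offset, 3 with DESeq2 and at 0.10, 1 with library size only, and 0 to 6. N-glycan trimming went from 0 to 3 under the block, 1 at 0.10, and 0 to 1. Degradation went from 0 to 4 under the block, 3 with the offset as well, 2 with DESeq2 and at 0.10, 1 with library size only, and 0 to 2. Translocation went from 0 to 5 under the block, 4 with the offset as well, 3 with DESeq2 and at 0.10, and 0 to 3. KDEL receptors went from 0 to 1 under the block, and 0 to 1. Relatives outside the ER went from 0 to 5 under the block, 3 with the offset as well, and 0 to 6. The intervals of DNAJB9, SDF2L1 and CRELD2 are the widest, and the shares of counting error and of spread between libraries in them were not tested.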

Other observations

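Other genes whose RefSeq promoters hold the same elements were followed through the same test. Of 37 such genes outside the chaperone list 30 were in the table under a matched symbol and 23 were tested. Their median log2 fold change was -0.031, with 4 above and 6 below Ctrl in both libraries (28.5% and 28.0% of all tested genes), and 1 passed the threshold (2.60% of all). The 1 was NAV2, a neuron navigator gene with ERSE-II, which had 68.7 and 69.2 CPM in Ctrl and 42.5 and 34.3 CPM in shSTAU1, a log2 fold change of -0.85 (adjusted p = 0.0392, edgeR's quasi-likelihood test). At an unadjusted p under 0.05 there were 6 of the 23, against 24.5% of all tested genes.

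Several ERSE genes of this group belong to ER folding or its control. The 18 in the table include XBP1, FICD, ERO1B, CANX and PDIA6. FICD, the enzyme that adds and removes AMP on HSPA5, had 2.29 and 1.77 CPM in Ctrl and 1.21 and 0.594 CPM in shSTAU1 (adjusted p = 0.183, edgeR's quasi-likelihood test). PDIA6, a disulfide isomerase, had 366 and 315 CPM in Ctrl and 342 and 372 CPM in shSTAU1, and the groups overlapped.

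The 5 tested genes whose profile over the 4 libraries was nearest to the mean profile of the chaperone genes were GNL3, SLC16A9, CUL4B, SMPDL3A and DNAJB6P1. Their Euclidean distances, on log2 CPM centred per gene, were 0.0059 to 0.0268, against a median of 0.48 over all tested genes. The 5 were picked as the smallest of all distances, so lying far under that median follows from the choice. The mean profile ran only from -0.087 to 0.13 and averages members whose log2 fold changes had opposite signs. A gene near it is thus a gene that changed little, and need not resemble any single chaperone gene. With 4 libraries a likeness to this profile describes these libraries only.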
